A study of Mus musculus with 2 samples.

Results

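Guides able to fold back on themselves were examined in a pooled CRISPR knockout screen of mouse macrophages. A guide was taken as self-complementary when a stretch of at least 5 bases (an arm) had its reverse complement further along the same 20-base guide, with at least 3 bases (the loop) between the arms. Pairing was Watson-Crick only, and guides with a run of 4 or more G were left out. Of the 79633 guides listed in both libraries, 2395 met this rule and 66 more had such a stem together with a run of G. The rule used letters only and no read count. Values were set beside the 75277 guides with no such stem and no run of G. Weighted to the same number of G plus C bases as the self-complementary guides, they are called matched guides below. Without weights they are called comparison guides. The weights could not cover 2 self-complementary guides, with G plus C counts of 1 and 19, where no matched guide existed.

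The cells were bone marrow derived macrophages of Cas9 knock-in mice, immortalised with the J2 retrovirus and engineered with the Tet3G transactivator and a doxycycline-inducible fragment of gasdermin D (GSDMD) fused to tagBFP. All cells had been transduced with Brie, a genome-wide mouse guide library in a lentiviral vector that confers blasticidin resistance. The input was 1 library from cells given no doxycycline. The survivors were 1 library from cells given 0.5 μg/ml doxycycline for 16 h and sorted for tagBFP and for exclusion of propidium iodide, a dye that enters cells with broken membranes. As the series title has it, the question was how the Ragulator-Rag-mTORC1 pathway controls pyroptosis and the assembly of GSDMD into oligomers. The input held 86266754 reads and the survivors 16269091. With 1 library per group there is no replicate check and no p-value. Intervals are exact binomial ones at 95% over guides or reads. Those over guides take guides as independent and reflect their spread within these libraries. Those over the reads of a single guide cover counting error only. None covers variation between replicate libraries, and matched values are taken as fixed. Reads amplified by PCR without molecular identifiers are not independent molecules.

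A guide RNA directs Cas9 by pairing its 20-base spacer with one strand of the target DNA, which lies next to a short NGG motif that Cas9 itself reads. Bases near that motif, the 3′ end of the spacer, pair first. A spacer whose arms pair with each other has fewer free bases to offer the target. A stem rich in G-C pairs is more stable than one of the same length with few. The same letters can also fold as single-stranded DNA while a guide cassette is synthesised, amplified or sequenced. GSDMD is the pore-forming protein of pyroptosis, an inflammatory cell death, and reads in the survivor library come from cells that made the induced fragment and still kept the dye out.

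The guides below show what the rule selects and the values that follow turn on them. Capitals mark the arms of the stem, and letters are DNA, 5′ to 3′, as in the count tables. Both guides with the longest stem, 8 bases, come first. The next 3 were the guides with the most input reads. The following 3 had the longest stems among guides with 0 input reads.
Stem of 8 bases, loop of 3: TGGGTTGGttaCCAACCCAg
Stem of 8 bases, loop of 4: TGGAGCGAaagtTCGCTCCA
Most input reads, 6039: agGAACGGgtctCCGTTCtg
Most input reads, 5845: CCAGGacaccgcatcCCTGG
Most input reads, 5757: tggaCACTGtcattCAGTGg
No input reads, stem of 7 bases: TTACCGAaagTCGGTAAcgt
No input reads, stem of 7 bases: tgaCGAGAATgatATTCTCG
No input reads, stem of 6 bases: GGAAGAcggaaTCTTCCgcg

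A fold was predicted for each guide alone, without the rest of the guide RNA. It was computed from the same letters as the rule, so it describes the set and is no independent check. RNAfold placed every pair of the stem in its minimum-energy structure for 2259 of 2395 guides, or 94.3%. The median folding energy was -4.6 kcal/mol, against -0.5 kcal/mol in matched guides. The lowest was -14.5 kcal/mol. Only 21 of the guides were predicted to stay unfolded (0.877%, 95% interval 0.544 to 1.34%), against 39.6% of matched guides. The longest stem was 5 bases in 2030 guides, 6 in 309, 7 in 54 and 8 in 2. Loops of 3 or 4 bases were present in 1135 guides and loops of 5 or more in 1260. By length, 649 guides had a loop of 3 bases, 486 of 4, 328 of 5 and 67 of 10. Among stems of equal length the shortest loop was taken. More than 1 stem could be drawn in 42 guides.

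No single hairpin dominated the set. The 2395 guides held 1103 different pairs of arms. The most frequent was CATTG with CAATG, in 17 guides, followed by CAGTG with CACTG and by TGATG with CATCA, in 14 each. Their median G plus C count was 10, as it was over all guides. Guides with few or many G plus C bases folded back more often: 4.49% of guides with a count of 6 met the rule, 2.76% with a count of 11 and 4.28% with a count of 15. Self-complementary guides were less common than guides that repeat a stretch of the same length and spacing on the same strand, which cannot pair: 2395 (3.08%) against 2687 (3.46%) of the 77672 guides without a run of G. Such a direct repeat was also present in 5.89% of the self-complementary guides (95% interval 4.98 to 6.91%), against 3.48% of matched guides. At least 3 CpG dinucleotides were present in 200 of them, or 8.35% (7.27 to 9.53%), against 6.90% of matched guides. They ended in GG in 288 cases (12.0% against 11.9%) and in TT in 17 (0.710% against 0.573%). The first base was G in 27.0%, against 27.4% of matched guides, and none held a run of 4 T, a stop signal of RNA polymerase III, against 0.0297%. Few of them share a target: 22 guides formed 11 overlapping pairs of at least 14 bases, 5 of them on opposite strands.

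In the uninduced input the self-complementary guides were nearly as abundant as their matched guides. They took 2.93% of the input reads and are 3.01% of the library. Their reads ranged from 0 to 6039, with quartiles at 477 and 1453 and a median of 906 (95% interval 872 to 943). The matched median was 927 and lies within that interval. Among G plus C counts with 50 or more such guides, which run from 6 to 14, their median was the lower one at 6 of 9.

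Loss from the input was somewhat less frequent among them than in matched guides, and the interval excluded the matched share at fewer than 30 reads but not at 0. With 0 input reads were 28 of the 2395, or 1.17% (95% interval 0.778 to 1.69%), where the background over all guides was 1.60% and the matched share 1.63%. Under 30 input reads were 65, or 2.71% (2.10 to 3.45%), with a background of 3.60% and a matched share of 3.67%. For a guide with no input reads the limit is 0.0348 RPM (reads per 1000000 of the library). Of the 28 absent guides, 13 carried one of the short motifs whose guides are mostly missing from this input (a start of TCTC or of AGACG, the letters TTCGAA at any place, or a BsmBI site on either strand), and 8 of these started with TCTC. Such motifs were in 14 self-complementary guides, or 0.585% (95% interval 0.320 to 0.979%), and the matched 0.924% lies within that interval. Without them, 15 of 2381 self-complementary guides (0.630%) and 627 of 74571 comparison guides (0.841%) had no input reads. The difference from matched guides in the share under 30 reads was then -0.65 percentage points (95% interval -1.20 to 0.02), where it had been -0.96 (-1.57 to -0.23). The 3 absent guides printed above had no survivor reads either.

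In the induced survivors their share of the reads was close to that in the input. They took 2.84% of the survivor reads, 0.969 times their share of the input. Survivor reads ranged from 0 to 2329, with quartiles at 28 and 279 and a median of 118. Change was measured as the log2 ratio of survivors over input in RPM with 1 added, set to 0 at the median of all guides with at least 30 input reads. Over the 2330 self-complementary guides with that many reads the median log2 ratio was -0.05 (95% interval -0.11 to 0.03), against -0.01 in matched guides. Single guides spread far more widely than that: the SD of the log2 ratio was 1.23, and the quartiles were -0.97 and 0.79. At least 4-fold up were 59 guides, 2.53% (1.93 to 3.25%), where the background was 3.04% and the matched share 3.02%. At least 4-fold down were 176, 7.55% (6.51 to 8.70%), with a background of 8.17% and a matched share of 8.28%. Both shares lie near the background. The split depended on the centring. With TMM factors and no centring on the median guide it was 35 up and 260 down, against 1.77% and 11.6% of all guides. With DESeq2 size factors and no centring it was 40 up and 248 down, 1.72% and 10.6% against 2% and 11.2%. With TMM factors and the centring kept it was 59 up and 190 down, 2.53% and 8.15% against 3.09% and 8.82% of all guides. With DESeq2 size factors and the centring kept it was 58 up and 194 down, 2.49% and 8.33% against 3.11% and 8.99%.

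Complete absence from the survivors was near the matched share. Of the 2330 guides, 248 had 0 survivor reads, or 10.6% (95% interval 9.42 to 12.0%), with a background of 10.3% and a matched share of 10.5%. Absence followed input reads in both sets. Among guides with 30 to 470 input reads, the lowest of 5 equal groups, 36.7% of self-complementary guides were absent (32.6 to 41.0%) against 37.4% of the comparison guides. At 799 to 1161 reads, the middle group, the shares were 3.04% (1.71 to 4.96%) and 3.42%. From 1680 reads, the highest group, 2 of 444 were absent, or 0.450% (0.0546 to 1.62%), against 0.165%. The median log2 ratio lay below that of the comparison guides in the lowest and the highest group and above it in the 3 between. From the lowest group to the highest it was -0.53 (-0.68 to -0.43) against -0.39, -0.05 (-0.22 to 0.14) against -0.10, 0.07 (-0.15 to 0.26) against 0.04, 0.17 (-0.05 to 0.27) against 0.15, and 0.20 (0.12 to 0.31) against 0.25. Only the interval of the lowest group leaves out the comparison value. In these 5 groups the comparison guides were not weighted to G plus C count.

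Medians were lower at longer stems in both libraries. Guides with a stem of 5 bases had a median of 921 input reads against a matched 926, and a median log2 ratio of -0.03 (95% interval -0.10 to 0.06) against -0.01. With 6 bases the input median was 852 against 928, and the log2 ratio -0.13 (-0.27 to 0.04) against -0.01. With 7 bases the input median was 733 against 963, and the log2 ratio -0.35 (-0.94 to 0.24) against 0.02. All of these intervals for the ratio include the matched value. Just below the rule, the 10995 guides whose longest stem was 4 bases had a median of 942 input reads against 935 and a log2 ratio of -0.02 (-0.05 to 0.02) against -0.01. Just outside it on the loop, the 542 guides whose only stem of 5 bases spans 2 bases had a median of 927 input reads against 920 and a log2 ratio of -0.07 (-0.20 to 0.13) against -0.02. For these classes just outside the rule, the matched guides include the class itself.

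Stems of 7 or 8 bases were few and varied widely. They were 56 guides, of which 40 had a loop of 3 or 4 bases. Their input reads ran from 0 to 3693, with a median of 733 (95% interval 529 to 933), below the matched 966. Among the 52 with at least 30 input reads, 30 had a log2 ratio below 0 and 22 above it, from -2.83 to 2.08. At least 4-fold up was 1, or 1.92% (0.0487 to 10.3%) against a matched 3.02%, and at least 4-fold down were 5, or 9.62% (lower limit 3.20%) against 8.03%. Both intervals include the matched share. The 8-base guide TGGAGCGAaagtTCGCTCCA had 1194 input reads and 17 survivor reads, a log2 ratio of -2.44. Its ratio without the added 1 RPM was -3.31 on the log2 scale (-4.09 to -2.62). The other, TGGGTTGGttaCCAACCCAg, had 2 input reads and no survivor reads, and no ratio was taken.

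The ratio also varied with the loop and with the G-C pairs of the stem. Guides with a loop of 3 bases had a median log2 ratio of -0.12 (95% interval -0.24 to -0.02) against -0.01 in matched guides, and those with a loop of 4 had -0.16 (-0.26 to -0.00) against -0.02. Together these 1096 guides had -0.14 (-0.22 to -0.06), and 17 of them, 1.55% (0.906 to 2.47%), were at least 4-fold up, against a matched 3.03%. With loops of 5 or more bases, the 1234 guides had a median of 0.08 (-0.04 to 0.17) and 42 of them, 3.40% (2.46 to 4.57%), were 4-fold up. The share absent from the survivors ran the other way, 9.31% (7.65 to 11.2%) with a loop of 3 or 4 and 11.8% (10.1 to 13.8%) with a longer one, against matched shares of 10.6% and 10.4%. By composition, guides with 4 or more G-C pairs in the stem had a median log2 ratio of -0.19 (-0.31 to -0.05) against 0.06, and those with fewer had -0.01 (-0.09 to 0.08) against -0.02. Cuts at a loop of 4 bases and at 4 G-C pairs were drawn after the values of each class had been seen.

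Compact G-C stems, with a loop of 3 or 4 bases and 4 or more G-C pairs, had a lower log2 ratio than their matched guides. They were 171 guides. The median folding energy was -7.85 kcal/mol in the 186 guides with 4 or more G-C pairs and a longer loop, and -7.6 kcal/mol in the compact stems. Their input reads ran from 0 to 6039 with a median of 899 (95% interval 791 to 1096), and the matched 1095 lies just inside that interval. Their survivor reads ran from 0 to 2030 with a median of 92. Over the 167 with at least 30 input reads the median log2 ratio was -0.39 (95% interval -0.65 to -0.21), against 0.06 in matched guides and 0.04 when input reads were matched as well. The ratio was below 0 in 107 of the 167 (64.1%) and above it in 60, with quartiles at -1.38 and 0.30. At least 4-fold up was 1 guide, 0.599% (0.0152 to 3.29%), and the matched 2.84% lies within that interval. At least 4-fold down were 16, 9.58% (5.58 to 15.1%) against 7.40%. Absent from the survivors were 20, or 12.0% (7.47 to 17.9%) against 7.69%. Both parts of the pattern went together: a short loop with fewer G-C pairs gave -0.09 (-0.17 to -0.00) against -0.03, and a longer loop with 4 or more G-C pairs gave -0.03 (-0.15 to 0.24) against 0.05.

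The same 167 guides were also described by base composition and first base. The class was drawn with its log2 ratios in view, so these splits restate its low median and are no support for it. At each G plus C count with 10 or more such guides, from 11 to 15, their median log2 ratio lay below that of the comparison guides, in 5 of 5 counts. A first base of G goes with fewer survivor reads in these libraries, and 30.4% of the compact stems started with G. Split by first base, the medians were -0.31 with A against a matched 0.12, -0.35 with C against 0.29, -0.57 with G against -0.24 and -0.31 with T against 0.37. These groups hold 26, 48, 51 and 42 guides. Their intervals reached from -0.90 to 0.17 with A, from -0.75 to 0.11 with C, from -1.28 to -0.19 with G and from -1.24 to 0.25 with T. The matched value lay above the interval for C and T and within it for A and G.

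Within them, 21 guides had 5 or 6 G-C pairs. Of the 20 with at least 30 input reads, 14 had a log2 ratio below 0 and 6 above it, and the median was -1.32. Their interval relative to matched guides, -1.70 to 0.03, is wide because they are few. The following were chosen after their values were seen, to show stems with 5 G-C pairs on both sides. The log2 ratio stands in each name.
Log2 ratio -1.97: gcacgaGCGCCataGGCGCg
Log2 ratio -1.92: aTGCGTGGcaatCCACGCAc
Log2 ratio -1.90: gCGTCTGCagaGCAGACGta
Log2 ratio -1.88: gCGTCGGTggtgACCGACGa
Log2 ratio 0.93: tgGGCAGGtcaCCTGCCatg
Log2 ratio 1.82: taCGTGCTGccaCAGCACGg
Log2 ratio 2.19: CGGCGctctCGCCGtacttg
The guide gCGTCTGCagaGCAGACGta had 529 input reads and 7 survivor reads, and aTGCGTGGcaatCCACGCAc had 992 and 24. At the other end, CGGCGctctCGCCGtacttg had 982 and 670, and taCGTGCTGccaCAGCACGg had 731 and 391. The folding energies of gCGTCTGCagaGCAGACGta and taCGTGCTGccaCAGCACGg were -11.9 and -10.5 kcal/mol. Over the guides listed they ran from -12.1 to -8.5 kcal/mol at the negative ratios and from -10.5 to -7 kcal/mol at the positive ones. Whether the ratio of such guides follows folding energy was not tested.

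Guides outside the rule gave further comparisons. Their matched guides include the class itself, except for direct repeats, where matched guides with a repeat were left out. A 4-base stem made only of G-C pairs with a loop of 3 or 4 bases was present in 103 guides. Their median input was 938 reads (95% interval 857 to 1236) against a matched 1101, and the median log2 ratio of the 99 with at least 30 input reads was -0.18 (-0.56 to 0.24) against -0.02. At least 4-fold up were 0 of the 99, which allows up to 3.66%, against a matched 2.39%, and 10 were at least 4-fold down, 10.1% (4.95 to 17.8%) against 7.67%. Direct repeats rich in G and C, 3 or 4 bases apart, were present in 147 guides and cannot pair. They had a median of 1237 input reads against 1104 and a log2 ratio of -0.09 (-0.31 to 0.23) against 0.06. Over all 2546 guides with a direct repeat and no hairpin stem, the log2 ratio was 0.04 (-0.02 to 0.11) against -0.01. Guides with no stem of 5 bases but a folding energy below -6 kcal/mol, 700 in all, had -0.07 (-0.18 to 0.02) against 0.04. The 612 self-complementary guides below that energy had -0.07 (-0.17 to 0.03) against 0.05.

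Values varied with the place of the stem in the guide without a steady order along it. The 641 guides whose 5′ arm began at position 1, counted from the 5′ end, had a median of 839 input reads (95% interval 775 to 893) against 923, and those beginning at position 4 had 1014 (888 to 1072) against 937. Those beginning at position 5 had the lowest median log2 ratio of the 8 starts, -0.24 (-0.44 to 0.05) against -0.01, with the matched value inside the interval. Those beginning at position 6 were absent from the input more often, 8 of 188 or 4.26% (1.85 to 8.21%) against 1.64%. Their share under 30 input reads was 5.85% (2.96 to 10.2%), with the matched 3.68% inside the interval. Many places and measures were compared, so some intervals can leave out the matched value by chance. Stems that reached position 20, next to the NGG motif in the target, were present in 617 guides, which had a median of 989 input reads (935 to 1069) against 939 and a log2 ratio of 0.07 (-0.06 to 0.19) against -0.01. Stems ending at position 15 were in 188 guides with 758.5 input reads (651 to 856) against 897, and a log2 ratio of -0.04 (-0.21 to 0.14) against -0.03. By first base, the medians followed the matched guides: -0.32 for G against -0.29, 0.06 for A against -0.03, 0.14 for C against 0.20 and 0.14 for T against 0.20.

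Guides at either end of the ratio had common, short stems. These were the 4 highest and the 4 lowest log2 ratios among self-complementary guides with at least 200 input reads, shown with the ratio in each name.
Log2 ratio 3.52: accaGGAACcagGTTCCaca
Log2 ratio 3.30: cagtTCTGTagggACAGAtg
Log2 ratio 3.01: TGAGTccaagacACTCAatg
Log2 ratio 2.94: caagTGTTGtgagagCAACA
Log2 ratio -4.34: gGAACAcaggaaTGTTCtga
Log2 ratio -4.28: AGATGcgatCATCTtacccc
Log2 ratio -3.79: ttTGCAGaaggaataCTGCA
Log2 ratio -3.77: gCCGAGccgtcagctCTCGG
The guide accaGGAACcagGTTCCaca had 709 input reads and 1267 survivor reads. The next, cagtTCTGTagggACAGAtg, had 555 and 875, TGAGTccaagacACTCAatg had 677 and 850, and caagTGTTGtgagagCAACA had 618 and 748. At the low end, gGAACAcaggaaTGTTCtga had 2251 input reads and none in the survivors, and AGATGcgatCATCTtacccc had 2147 and none. The guide ttTGCAGaaggaataCTGCA had 1605 and 1, and gCCGAGccgtcagctCTCGG had 1867 and 4. All 8 stems were 5 bases long, as were 2030 of the 2395 in the whole set. Folding energies ran from -5.0 to -2.2 kcal/mol, where the median of the set was -4.6 kcal/mol. None of these extremes carried a long or very stable hairpin, and most guides of the set did not either. Their genome positions were not analysed here. Of the guides with the most input reads, agGAACGGgtctCCGTTCtg had 2030 survivor reads and a log2 ratio of 1.24, CCAGGacaccgcatcCCTGG had 1862 and 1.17, and tggaCACTGtcattCAGTGg had 664 and -0.28. The first of these is a compact G-C stem.

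The count tables give no gene for a guide. A search of RefSeq windows around gene starts (250 bases before to 50 after, build GRCm38.p6) for the 2395 guides next to NGG found 19, of which 16 lay at 1 place. Each of the 16 fell inside 1 RefSeq protein-coding gene, given with its position for 8 of them, and the guide in Hmgn3 also lies in the long non-coding gene Gm2065; exon or intron was not analysed here, and other places in the genome were not searched. Their log2 ratios, with the added 1 RPM, ran from -1.55 to 1.43.
Nthl1, chr17:24632790-24632809, plus strand: ccgCGCGActaggaTCGCGt
Ddx51, chr5:110653567-110653586, plus strand: gggCTCGAGtgctgCTCGAG
Gng5, chr3:146499978-146499997, plus strand: ggtCCAGCagctccgGCTGG
Srsf12, chr4:33209298-33209317, minus strand: gtagCGAGAcatgccTCTCG
Prkar1a, chr11:109653923-109653942, minus strand: tATTCCcgaaGGAATgccat
Rfng, chr11:120784021-120784040, plus strand: tcCGGGTcgggACCCGatcg
Tceal1, chrX:136708911-136708930, plus strand: tgagGAGGAtcaaTCCTCgg
Hmgn3, chr9:83111071-83111090, minus strand: agaTTAGCAgaggTGCTAAg
The highest belonged to the guide in Tceal1, with 1248 input reads, 492 survivor reads and a log2 ratio of 1.43. The guide in Hmgn3, a nucleosome-binding protein, had 1270, 418 and 1.18. In Prkar1a, a regulatory subunit of protein kinase A, the guide had 321 and 88 reads and a log2 ratio of 0.86. The guide in Gng5, a G protein gamma subunit, had 790 and 26 reads and a log2 ratio of -1.55, or -2.10 (95% interval -2.72 to -1.54) without the added 1 RPM. The guide in Rfng, a Notch-modifying glycosyltransferase of the fringe family and here a compact G-C stem, had 186 input reads and none in the survivors, a log2 ratio of -1.24. Without the added 1 RPM its upper limit is -2.82, below the whole interval of the guide in Gng5, so the order of these guides rests on the pseudocount. The guide in Srsf12, an SR-family splicing factor, had 1301 and 68 reads and -1.22. In Ddx51, an RNA helicase of the DEAD-box family, the guide had 1062 and 90 reads and -0.61. The guide in Nthl1, a DNA repair glycosylase, had 1470 and 222 reads and 0.12. It also lies in the window before the start of Tsc2, which encodes a brake on mTORC1, 182 bases upstream. Most of the listed guides were likewise found in the window of another gene. These were Noc4l for Ddx51, Spata1 for Gng5, Gps1 for Rfng, Gm39443 for Prkar1a, Gm39536 for Tceal1 and Gm2065 for Hmgn3. Only the guide in Srsf12 was found in the window of the gene listed. One guide per gene with 1 library per group does not measure the gene.

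Where 1 self-complementary guide and 1 comparison guide overlapped by at least 14 bases, 35 pairs in all, the self-complementary guide had fewer input reads in 13. Both guides had at least 30 input reads in 29 pairs. The self-complementary guide had the lower log2 ratio in 17 of these, with a median difference of -0.24.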

How the data were processed

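Guide abundance was measured by sequencing the guide barcode amplified from genomic DNA of 2 populations, with 1 library each, grouped by the treatment label. Per the file headers, what the authors deposited are raw counts of reads for each 20-base barcode, not normalized. The counting tool, its settings and the meaning of combined in the headers were not given in the sources used here. Scaled values were computed here: counts per library total of 1000000, plus 1, as a log2 ratio centred on the median guide from 30 input reads. The added 1 understates the change of guides with few reads.

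Stems were found by letter and tested on simulated data. Members and lists were chosen with earlier results of these data known. Matched values came from comparison guides weighted to the G plus C counts of the members. Medians have order-statistic intervals and shares Clopper-Pearson intervals. Folding energy came from ViennaRNA 2.7.2 on each guide alone as RNA, without its scaffold. Guides named singly were all those with a stem of 8 bases and the 4 highest and 4 lowest log2 ratios from 200 input reads. Added to these were the 3 with most input reads and the 3 longest stems with none. Of the 16 guides found at 1 place in RefSeq windows, 8 were named. Others are marked as chosen afterwards. edgeR 4.0.16 and DESeq2 1.42.0 gave scaling factors only, with R 4.3.3; other steps used Python 3.11.15, numpy 2.4.6, pandas 2.3.3 and scipy 1.17.1. Alternatives covered the stem, loop, matching, read minimum, pseudocount, scaling and fold.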

Additional observations from a re-analysis of the deposited data

Results flagged for a closer look

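Of the 28 self-complementary guides absent from the input, 1 was found in the survivors, above the 3 reads that a count of 0 there would allow. The guide tgCAGAAgaagctagTTCTG had 71 survivor reads, or 4.36 RPM, where 0 input reads allow up to 0.0348 RPM. It lies outside every ratio. The nearest other guide of the library differs from it at 5 positions.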

How the results depend on the processing

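No paired analysis was possible because there was a single library in each group; leaving out a replicate was not possible either. Of 86 alternatives, 64 were planned and 22, on short loops, compact G-C stems and centred scaling, were chosen after seeing the data. Within the interval of the value as reported or, for counts, within 1.5 times of it stayed 72, 14 moved and none reversed. A reversal was counted only where the reported interval left out 0, and never for counts. Where the interval includes 0, some signs did change. The difference from matched guides in log2 ratio, -0.04 as reported, was 0.003 with a loop of at least 4 and negative in the other settings. That in the share absent from the survivors, 0.14 percentage points, was -0.21 with input reads matched. It was -0.06 from 10 and -0.20 from 200 input reads, and positive in the other settings. With a stem of 6 or more bases, 365 guides met the rule. Their median input lay at -104 reads from the matched one where it had been -21, and the median log2 ratio at -0.14 where it had been -0.04. Of the 353 with at least 30 input reads, 4 were 4-fold up, 1.13% (0.31 to 2.88%) against a matched 3.03%. Another 23 were 4-fold down, 6.52% (4.17 to 9.62%) against 8.23%. Only the interval of the up share leaves out the matched share. The cause of the lower medians and of the lower up share was not tested. A pseudocount of 0.1 gave 90 up and 446 down, 3.86% and 19.1% against 4.41% and 18.5% of all guides. One of 5 gave 6 up and 7 down, 0.258% and 0.300% against 0.569% and 0.203%. TMM factors without centring gave 35 up, where 1.77% of all guides were up, and 59 with centring, where 3.09% were. A 2-fold limit gave 440 up and 567 down, 18.9% and 24.3% against 20.1% and 23.6%. For compact G-C stems the difference from matched guides, -0.45, became -1.38 with at least 5 G-C pairs and -0.24 with at least 3; the latter classes hold other guides. The survivors, with fewer reads, limit every ratio of guides with few input reads.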
